A study of Mus musculus with 16 samples.

Results

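The genes described here are 32 genes of glucose uptake, glycolysis, lactate handling and the hypoxia response, chosen by symbol and followed on arrays of mouse dendritic cells that met a gut bacterium. The arrays hold 63 probe sets that name exactly 1 of these genes, and they measure 30 of the 32 genes, out of 18194 genes measured in all. Gpi1 and Eno1 have no probe set that names them alone and are named only. Dendritic cells were grown from bone marrow of wild type C57BL/6 mice with GM-CSF, and the non-adherent immature cells were used. Lactobacillus acidophilus NCFM, a strain sold as a probiotic, was added at 10 µg/ml for 4, 10 or 18 h, with 3 arrays at each time. Control cells of the same strain, kept in the same GM-CSF medium, have 3 arrays for 4 h and 2 each for 10 h and 18 h. The labels number the arrays within a group but do not say whether they are separate mice or cultures, and the spread that the p-values rest on may therefore be technical. The comparison asks which of these genes change when NCFM is added, and when.

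Glycolysis splits glucose into pyruvate in a chain of enzymes, and cells that run it fast turn much of the pyruvate into lactate and export it. The hypoxia-inducible factor HIF-1 switches on many of these enzymes. Its alpha subunit is made all the time, but while oxygen is plentiful the prolyl hydroxylases Egln1 and Egln3 and their relative Egln2 mark the protein for destruction through the von Hippel-Lindau protein. Dendritic cells and macrophages are known to raise glycolysis after contact with microbial products, and Toll-like receptor signals are known to raise Hif1a transcription. Arrays measure messenger RNA, so neither the HIF protein nor the flux through the pathway was measured.

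HIF binds the core letters ACGTG or GCGTG next to gene starts, so the promoters of 7 genes are shown: 5 that rose in NCFM cells at 18 h (Ankrd37, Ddit4, Ldha, Pgk1, Slc2a1), Slc2a6, which rose early, and Aldoc, which fell. Each line gives the 200 bases before the annotated start from RefSeq (GRCm38.p6), 5′ to 3′ on the gene's strand, with matches to either motif on either strand in capitals, from the annotated start whose window holds most matches. The windows are Ankrd37 chr8:45999851-46000050 (minus strand), Ddit4 chr10:59951771-59951970 (minus strand), Ldha chr7:46845604-46845803 (plus strand), Pgk1 chrX:106186900-106187099 (plus strand), Slc2a1 chr4:119108545-119108744 (plus strand), Slc2a6 chr2:27027999-27028198 (minus strand) and Aldoc chr11:78322873-78323072 (plus strand).
Ankrd37: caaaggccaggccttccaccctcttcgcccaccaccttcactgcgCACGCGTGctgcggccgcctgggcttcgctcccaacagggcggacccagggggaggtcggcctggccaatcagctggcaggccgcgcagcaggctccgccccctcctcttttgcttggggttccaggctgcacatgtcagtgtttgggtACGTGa
Ddit4: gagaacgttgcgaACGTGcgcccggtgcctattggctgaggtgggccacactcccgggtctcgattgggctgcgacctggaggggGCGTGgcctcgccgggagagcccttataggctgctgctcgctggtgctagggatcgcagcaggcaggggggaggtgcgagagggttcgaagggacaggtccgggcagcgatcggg
Ldha: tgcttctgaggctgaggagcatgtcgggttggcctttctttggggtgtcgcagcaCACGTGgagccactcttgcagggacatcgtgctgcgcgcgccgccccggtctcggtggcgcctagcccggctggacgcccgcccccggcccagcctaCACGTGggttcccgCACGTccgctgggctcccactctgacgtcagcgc
Pgk1: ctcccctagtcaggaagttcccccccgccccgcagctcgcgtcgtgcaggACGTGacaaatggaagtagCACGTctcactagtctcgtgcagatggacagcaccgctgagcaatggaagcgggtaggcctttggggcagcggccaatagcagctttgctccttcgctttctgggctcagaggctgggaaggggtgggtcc
Slc2a1: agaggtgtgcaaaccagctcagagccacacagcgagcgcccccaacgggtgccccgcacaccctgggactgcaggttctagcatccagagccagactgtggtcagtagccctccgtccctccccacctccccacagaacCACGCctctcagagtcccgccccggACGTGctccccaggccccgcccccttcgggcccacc
Slc2a6: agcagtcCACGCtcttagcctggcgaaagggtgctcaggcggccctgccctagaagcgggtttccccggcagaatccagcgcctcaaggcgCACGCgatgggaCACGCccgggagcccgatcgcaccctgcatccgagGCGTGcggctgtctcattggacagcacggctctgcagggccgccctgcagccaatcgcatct
Aldoc: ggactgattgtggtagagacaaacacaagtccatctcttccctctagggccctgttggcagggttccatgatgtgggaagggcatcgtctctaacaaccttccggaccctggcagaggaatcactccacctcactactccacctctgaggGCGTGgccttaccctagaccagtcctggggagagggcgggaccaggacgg
Ankrd37 has 1 match to ACGTG and 2 to GCGTG in its line, Ddit4 1 and 1, and Slc2a1 1 and 1. Ldha has 5 matches and Pgk1 has 2, all to ACGTG; in Ldha the letters CACGTG match on both strands, and each strand counts. Slc2a6 has 4 matches and Aldoc has 1, all to GCGTG. Wider windows, from 250 bases before to 50 after the start, add matches for 3 of the 7 genes. There Aldoc has 1 match to ACGTG and 2 to GCGTG, Ankrd37 2 and 2, and Ldha 5 and 2. Tpi1, which was also called higher at 18 h, has no match to either motif in its wider window. RefSeq windows from 250 bases before to 50 after a start were matched for 29 of the 30 genes, and ACGTG lay in a window of 22 of them, or 75.9%, against 21.8% of 27025 genes. GCGTG was found for 69% of the listed genes and 35.2% of all genes. The windows of the listed genes are rich in G and C, and among windows with 60 to 70% G and C, ACGTG lay in 14 of the 20 listed, or 70%, and in 27.3% of all 6542, while GCGTG lay in 55% of the listed and 56.7% of all. A match is a description of these letters, and the list was put together in part from known HIF targets, so the shares are no independent evidence.

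Median intensities lay between 162 and 167 on the 16 arrays and the first quartile between 104 and 108. Precision is limited by how few arrays each group has. Of 8 dendritic cell markers 7 lay above the array median on all arrays. So did 1 of 4 T and NK cell markers, 1 of 3 fibroblast markers and 1 of 6 mast cell, basophil and eosinophil markers. None of the 3 measured B cell or 2 measured erythroid markers did. Summed dendritic cell markers were 52602 to 54375 in NCFM cells and 55875 to 56816 in control cells at 10 h. At 18 h they were 50115 to 54380 in NCFM cells and 59812 to 61538 in control cells, again without overlap. Summed neutrophil markers (6 of 7 above the median on all arrays) were 7730 to 35702 in NCFM cells and 28390 to 40892 in control cells at 4 h. At 10 h they were 12913 to 34015 in NCFM cells and 39041 to 47401 in control cells. At 18 h the sums were 5556 to 16953 in NCFM cells and 22751 to 25519 in control cells, so that the groups did not overlap at the later times. Markers of dividing cells (4 of 5 above the median on all arrays) summed to 1737 to 1819 in NCFM cells at 18 h and to 2266 to 10492 in control cells. Macrophage and monocyte markers (7 of 7) summed to 30676 to 42805 in NCFM cells at 18 h and to 43872 to 67257 in control cells. At 10 h the groups overlapped in both sums. Dividing cell markers then had 1785 to 3533 in NCFM cells and 2612 to 7738 in control cells. Macrophage and monocyte markers had 23866 to 44966 and 28664 to 61558. The part of these cells in the results was not tested, and in bulk RNA fewer cells of a type and less RNA per cell cannot be told apart. Arrays numbered 1 stood apart from the others: 18.1% of all genes lay on the same side of their partners on the number 1 array in all 6 groups.

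Few of the genes were called at 4 h, most of those called at 10 h were lower in NCFM cells, and most of those called at 18 h were higher. Differences are given as log2(NCFM / control) ± the fit's standard error (SE), and a gene was called at an adjusted p under 0.05 in limma. At 4 h 4 of 30 genes were called, 1 higher and 3 lower, where 18.3% of all genes were called, 5.27% higher and 13.1% lower. At 10 h 10 genes were called, 2 higher and 8 lower, against 24.7% of all genes, 8.21% higher and 16.5% lower. At 18 h 14 genes were called, 11 higher and 3 lower, against 23.7% of all genes, 7.4% higher and 16.3% lower. The share called higher at 18 h lay above that of all genes. The median difference over the 30 genes was 0.12 at 4 h, -0.09 at 10 h and 0.40 at 18 h, where the median over all genes was -0.01, 0.01 and 0.00. At 18 h every NCFM array lay above every control array for 14 of the 30 genes, against 21.1% of all genes, and below for 5, against 26.1%. With the array number as a block, 8 genes were called at 4 h, 4 in each direction (26.8% of all genes), and 14 and 18 at 10 and 18 h (31.1% and 30.5%). Leaving out NCFM array 3 or control array 2 left 2 calls at 4 h, leaving out control array 1 left 6 at 10 h, and leaving out either control array left 9 at 18 h. The plot of differences by role gives all 30 genes.

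**Figure D1:**
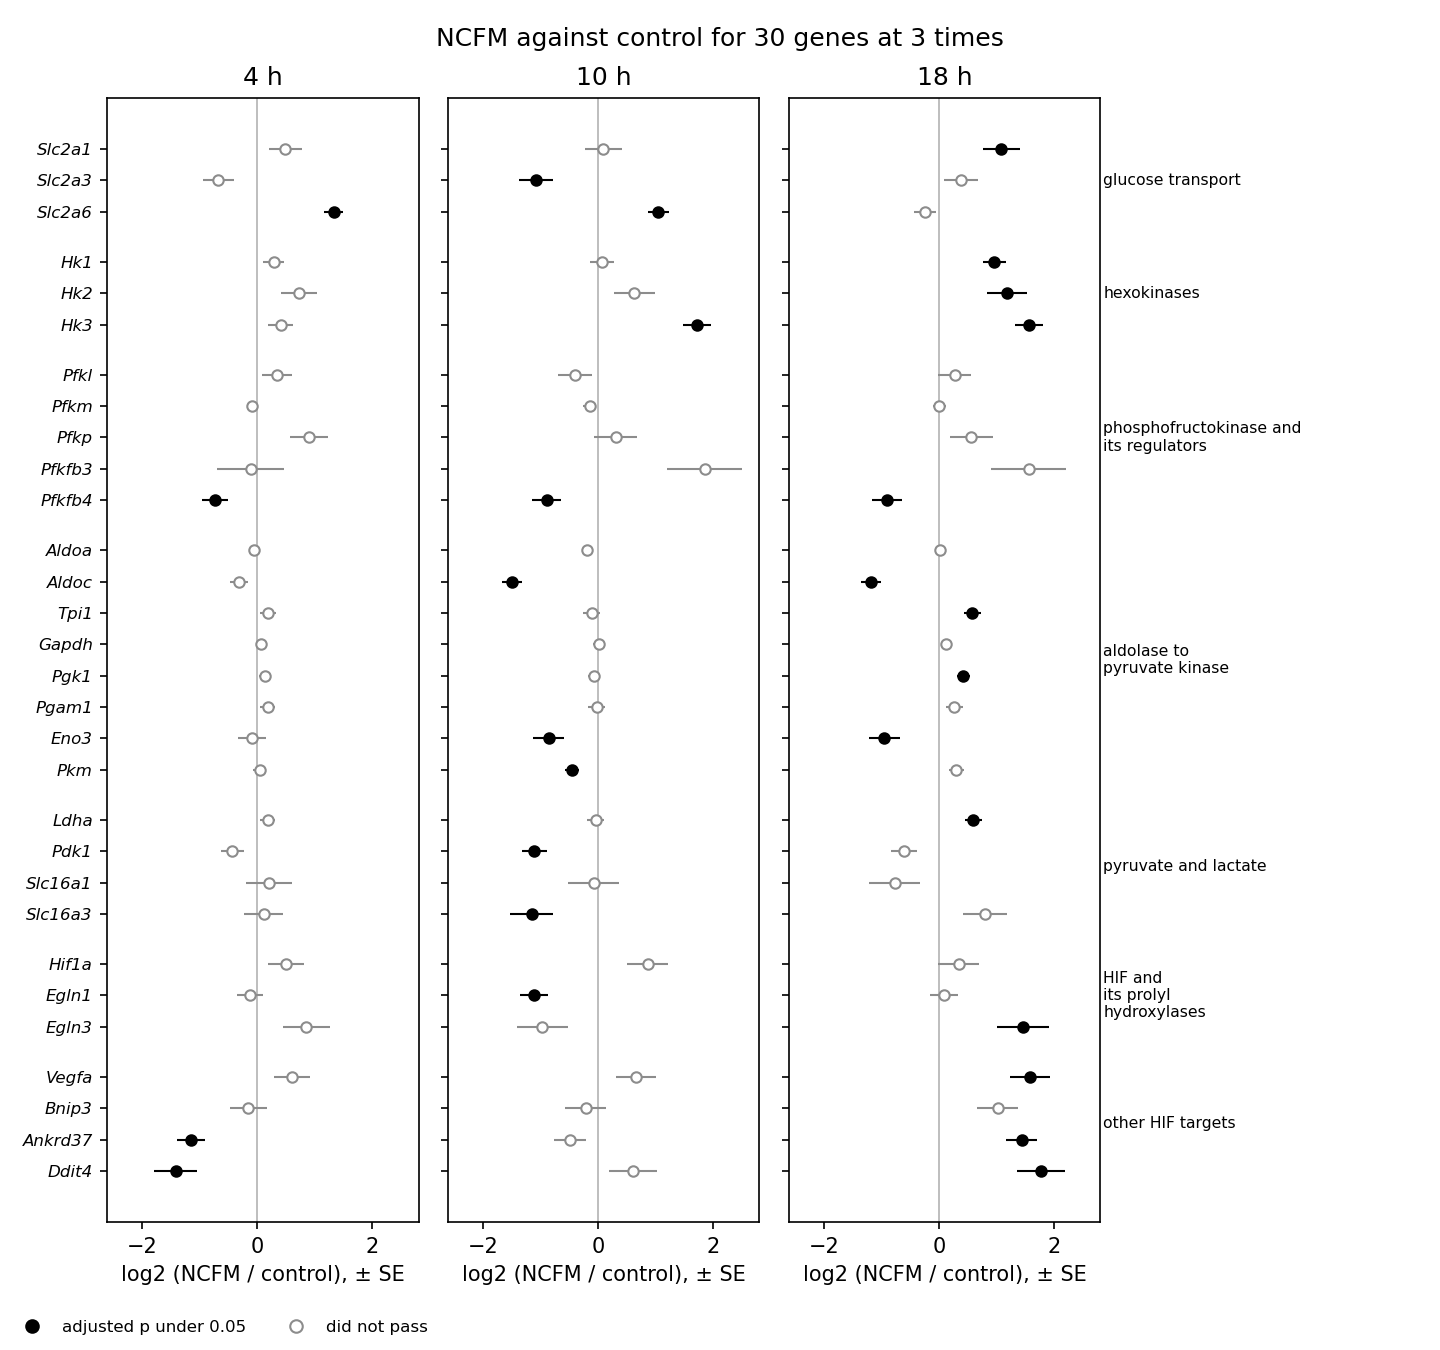
Difference between NCFM and control cells (log2 ratio, x axis, bars ± SE) for 30 genes grouped by role, in a panel each for 4, 10 and 18 h; filled points were called at adjusted p under 0.05. Called genes number 4, 10 and 14, with 11 of the 14 at 18 h on the right of 0.

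Of the glucose transporters, Slc2a6 was called higher at 4 and 10 h and Slc2a1 at 18 h. Slc2a6, the gene of GLUT6, had intensities of 3921, 5021 and 6226 on the NCFM arrays at 4 h, in the order of their numbers, against 1801, 1983 and 2163 in control cells. It was 2.51-fold higher (1.33 ± 0.17, n = 3 against 3, adjusted p = 0.00022). At 10 h Slc2a6 had 3651, 3712 and 3938 in NCFM cells against 1550 and 2144 in control cells (1.05 ± 0.19, n = 3 against 2, adjusted p = 0.00173). By 18 h its NCFM arrays were back among the controls, at 1826, 1577 and 1391 against 1709 and 2078 (-0.25, 95% interval -0.66 to 0.16). Slc2a1, the gene of GLUT1, the widespread carrier of basal glucose uptake, was called higher at 18 h. At 18 h it had 10663, 8252 and 6111 in NCFM cells against 4044 and 3661 in control cells, a 2.11-fold difference (1.08 ± 0.32, adjusted p = 0.0281) with no overlap. At 10 h it had 2928, 5360 and 4794 in NCFM cells against 3325 and 4746 in control cells, which overlap (0.09, interval -0.61 to 0.78). At 4 h it had 4228, 6748 and 7786 against 4949, 4598 and 3523, which overlap too (0.49, adjusted p = 0.273). The change of its NCFM effect was not called from 4 to 18 h (0.59, adjusted p = 0.6) or from 10 to 18 h (0.99, adjusted p = 0.668). The other 2 probe sets of Slc2a1 had 1.22 and 1.37 at 18 h, both called. Slc2a3, the gene of GLUT3, a carrier of high affinity, fell at 10 h, with 549, 466 and 355 in NCFM cells against 1097 and 822 in control cells (-1.08 ± 0.30, adjusted p = 0.0209). With the array number as a block Slc2a3 was called at the other times too, lower at 4 h (-0.67, adjusted p = 0.0125) and higher at 18 h (0.56, adjusted p = 0.0461). The calls of Slc2a6 held in all alternatives run. Slc2a1 at 18 h lost its call without NCFM array 1 (0.88, adjusted p = 0.0826), NCFM array 2 (1.07, 0.0705), control array 1 (1.15, 0.0754) or control array 2 (1.01, 0.139), and Slc2a3 at 10 h without NCFM array 3 (-0.91, 0.0767) or control array 1 (-0.87, 0.188). As the mean of its 4 probe sets, 2 of them dim, Slc2a3 had -0.46 at 10 h (adjusted p = 0.0418). Where a fit leaves out a control array at 10 or 18 h, the lone control array left is taken to be as variable as the other groups.

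All 3 hexokinases, which trap glucose in the cell by phosphorylating it, were higher in NCFM cells at 18 h. Hk3, the form found in myeloid cells, was called higher at 10 and 18 h. At 10 h its intensities were 3320, 6134 and 6675 in NCFM cells against 1443 and 1708 in control cells, 3.28-fold higher (1.71 ± 0.25, adjusted p = 0.000406). At 18 h they were 4527, 5102 and 5304 in NCFM cells against 1420 and 1987 in control cells (1.56 ± 0.25, adjusted p = 0.000764). The lowest NCFM array lay well above the highest control array at both times. Hk1, the housekeeping form, had 3814, 2793 and 2928 in NCFM cells at 18 h against 1551 and 1682 in control cells (0.96 ± 0.20, adjusted p = 0.00482). Before that Hk1 was not called, with differences of 0.29 (interval -0.11 to 0.69) at 4 h and 0.07 (interval -0.38 to 0.51) at 10 h. For Hk2, the inducible form and a known HIF target, the arrays read 3121, 3912 and 3434 in NCFM cells at 18 h against 1212 and 1939 in control cells (1.18 ± 0.35, adjusted p = 0.0287). At 4 h the Hk2 arrays did not overlap either, with 2685, 4315 and 4894 against 2061, 2596 and 2353, and the difference of 0.72 ± 0.31 missed the threshold (adjusted p = 0.138) but passed with the array block (adjusted p = 0.00482). With the block Hk2 was called at 10 h too (0.55, adjusted p = 0.0319). Leaving out 1 array ended no call of Hk1 or Hk3, while Hk2 at 18 h was lost without NCFM array 2 (1.09, adjusted p = 0.0858), NCFM array 3 (1.19, 0.0616) or control array 1 (0.84, 0.197). Neutrophil and dendritic cell marker sums were both lower in NCFM cells at the times at which Hk3 rose, as given above. Macrophage and monocyte sums overlapped at 10 h and were lower in NCFM cells at 18 h. The part of cell types in the Hk3 values was not tested.

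Phosphofructokinase is the main control point of glycolysis, and none of its 3 forms was called on its brightest probe set in the fit without the array number. Of its regulators Pfkfb4 fell. Pfkl, the liver form, had differences between -0.40 and 0.34. Pfkm, the muscle form, had differences between -0.15 and 0.01, and the fit with the block called it at 10 h (-0.21, adjusted p = 0.0344). Pfkp, the platelet form, had 3809, 3288 and 3564 in NCFM cells at 4 h against 2846, 1763 and 1375 in control cells, without overlap. Its difference of 0.90 ± 0.33 was not called (adjusted p = 0.0835), and the fit with the array block called it (adjusted p = 0.00268) and called it again at 18 h (0.68, adjusted p = 0.0218). A dimmer probe set of Pfkp was called at 4 h without the block (0.54, adjusted p = 0.0145), as was the brightest one without control array 1. Pfkfb3 makes the sugar bisphosphate that activates phosphofructokinase. Its arrays read 1194, 2371 and 3279 in NCFM cells at 10 h against 445 and 762 in control cells. That is 3.61-fold, the largest difference of the 30 genes at 10 h, but the spread was wide (1.85 ± 0.65, adjusted p = 0.0559). With the array block Pfkfb3 was called at 10 h (1.59, adjusted p = 0.0021) and at 18 h (1.29, adjusted p = 0.00706), and its second, dimmer probe set was called at both times on its own (0.63, adjusted p = 0.0111, and 0.97, adjusted p = 0.000889). Pfkfb4, a relative that also carries the opposing phosphatase, was lower in NCFM cells at all 3 times. It had 492, 537 and 491 against 650, 852 and 1073 at 4 h (-0.73 ± 0.23, adjusted p = 0.0433). At 18 h its arrays read 358, 503 and 603 against 713 and 1121 (-0.91 ± 0.26, adjusted p = 0.0224), and at 10 h the difference was -0.89 ± 0.26 (adjusted p = 0.023). A further quantile normalization ended the Pfkfb4 calls at 4 h (-0.61, adjusted p = 0.0979), 10 h (-0.69, 0.0709) and 18 h (-0.72, 0.065). Pfkfb4 also depended on single arrays: at 4 h its call was lost without any of 9 arrays (adjusted p up to 0.169), at 10 h without NCFM array 1 (-0.83, 0.0565), NCFM array 2 (-0.90, 0.0559) or control array 2 (-0.66, 0.158), and at 18 h without NCFM array 1 (-0.70, 0.0664) or control array 2 (-0.58, 0.233).

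**Figure D2:**
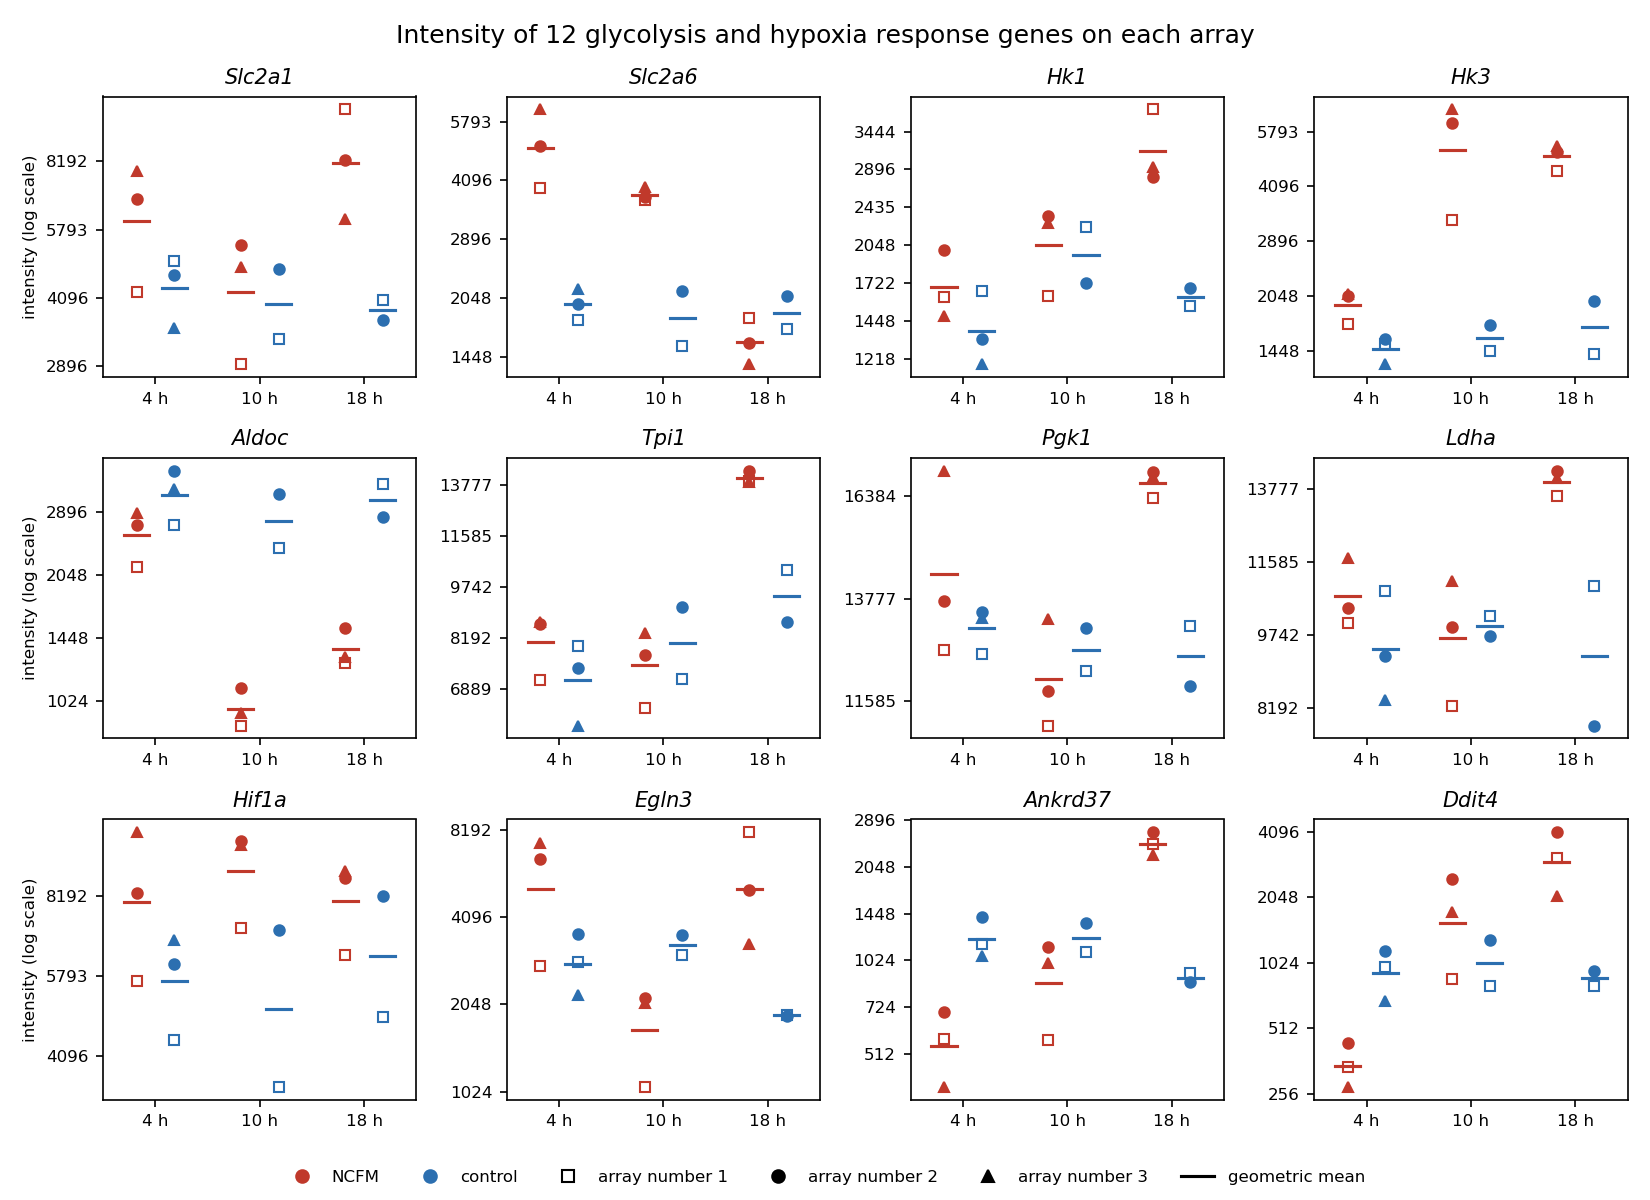
Intensity of 12 genes (log scale, y axis, a range of its own in each panel) on each of 16 arrays at 4, 10 and 18 h, NCFM in red left of control in blue; marker shape gives the array number and bars give the geometric mean. Slc2a6 is high in NCFM cells at 4 and 10 h, Hk3 from 10 h on, and Tpi1, Pgk1 and Ldha at 18 h, while Aldoc is low from 10 h on and Ddit4 and Ankrd37 are low at 4 h and high at 18 h.

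From aldolase to pyruvate kinase the abundant enzymes moved by less than 2-fold, and the minor isoforms Aldoc and Eno3 fell. Tpi1, triose phosphate isomerase, had 13978, 14461 and 13931 in NCFM cells at 18 h against 10333 and 8644 in control cells (0.58 ± 0.15, 1.49-fold, adjusted p = 0.0143). All 3 of its probe sets were called, between 0.58 and 0.60. Pgk1, phosphoglycerate kinase, which makes ATP in the pathway, had 16322, 17067 and 16918 in NCFM cells against 13159 and 11875 in control cells (0.42 ± 0.11, adjusted p = 0.0165), and its other 2 probe sets were called as well. The NCFM arrays of these genes lay close together, and the controls lay apart from each other. Gapdh was not called, with 21414, 21004 and 19778 in NCFM cells at 18 h against 20656 and 17606 in control cells. Its differences were 0.07 (interval -0.11 to 0.25), 0.01 (-0.19 to 0.22) and 0.12 (-0.08 to 0.32) at 4, 10 and 18 h. Aldoa, the main aldolase, was not called on its brightest probe set (-0.06, -0.19 and 0.03), although 3 of its 5 probe sets were called lower at 10 h, between -0.41 and -0.22. Pkm, pyruvate kinase, fell at 10 h, with 4563, 5944 and 6401 in NCFM cells against 7751 and 7529 in control cells (-0.45 ± 0.13, adjusted p = 0.0209). At 18 h its NCFM arrays were above the controls, at 9626, 9522 and 9890 against 8293 and 7455, where the difference of 0.30 was not called (adjusted p = 0.111). Pgam1, phosphoglycerate mutase, was not called (0.18, -0.03 and 0.26). Aldoc, an aldolase best known from brain, had the lowest adjusted p of the list at 10 h. There its arrays read 893, 1099 and 958 in NCFM cells against 2373 and 3208 in control cells, 2.82-fold lower (-1.49 ± 0.17, adjusted p = 9.74e-05). At 18 h they were 1260, 1532 and 1307 against 3388 and 2818 (-1.18 ± 0.17, adjusted p = 0.000497). A second probe set of Aldoc had -1.69 and -1.81 at these times, both called. At 4 h that probe set was called lower too (-0.56, adjusted p = 0.0446), while the brightest one was not called (-0.32, adjusted p = 0.189). Eno3, muscle enolase, was dim, with 368, 211 and 210 in NCFM cells at 10 h against 567 and 371 in control cells (-0.85 ± 0.27, adjusted p = 0.0351) and -0.95 ± 0.27 at 18 h (adjusted p = 0.0221). Pgk1 was lost when arrays were centred on their spike-in probe sets (0.25, adjusted p = 0.07) or with an intensity trend in the variance (adjusted p = 0.0579), and a quantile normalization ended the Eno3 call at 10 h (-0.70, 0.0836). Without control array 2 at 18 h Tpi1 had 0.45 (adjusted p = 0.136) and Pgk1 0.35 (0.134), and neither was called. Pkm at 10 h was lost without control array 1 (-0.43, 0.127) or 2 (-0.47, 0.0649). Eno3 was lost at 10 h without NCFM array 2 (-0.72, 0.114), NCFM array 3 (-0.72, 0.117) or control array 1 (-0.55, 0.334), and at 18 h without NCFM array 2 (-0.90, 0.0677), NCFM array 3 (-0.88, 0.0641) or control array 1 (-0.69, 0.164).

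At the end of the pathway Ldha was called higher at 18 h and Pdk1 lower at 10 h. Ldha, which turns pyruvate into lactate, had 13547, 14393 and 14151 in NCFM cells at 18 h against 10942 and 7860 in control cells (0.60 ± 0.15, 1.51-fold, adjusted p = 0.0133). At 4 and 10 h its differences were 0.18 (interval -0.11 to 0.48) and -0.04 (interval -0.37 to 0.29). The rise rests on the lower control array: without control array 2 the difference was 0.36 (adjusted p = 0.174). Pdk1, a kinase that shuts pyruvate out of the mitochondrial citrate cycle and a known HIF target, had 679, 696 and 899 in NCFM cells at 10 h against 1653 and 1582 in control cells. It was 2.15-fold lower (-1.11 ± 0.22, adjusted p = 0.00344), and its other 3 probe sets were called lower there too. At 18 h Pdk1 had 1421, 965 and 791 in NCFM cells against 1620 and 1520 in control cells, still without overlap but not called (-0.61, adjusted p = 0.0666). Another of its probe sets was called lower at 18 h (-0.82, adjusted p = 0.0325) and a dim one at 4 h (-0.34, adjusted p = 0.0209). The rest were not called at these times. The lactate carriers varied more between arrays. Slc16a3, the gene of the lactate exporter MCT4, was called lower at 10 h (-1.15 ± 0.38, adjusted p = 0.0431), where NCFM cells had 402, 575 and 732 and the controls 2132 and 709. A single control array makes this difference, since without control array 1 it was -0.36 (adjusted p = 0.553) and without control array 2 -1.95 (adjusted p = 0.00152). That call was also lost without any of 9 other arrays (adjusted p from 0.0508 to 0.114). At 18 h the Slc16a3 arrays read 1206, 889 and 1044 in NCFM cells against 522 and 683 in control cells, with no overlap and no call (0.80 ± 0.38, adjusted p = 0.153). Slc16a1, the gene of the lactate carrier MCT1, had 267, 336 and 376 in NCFM cells at 18 h against 563 and 541 in control cells (-0.77 ± 0.44, adjusted p = 0.236), which did not pass either.

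Among the oxygen sensors, Egln1 fell at 10 h and Egln3 rose at 18 h, while Hif1a was not called in the fit without the array number. Hif1a had 7140, 10420 and 10239 in NCFM cells at 10 h against 3581 and 7076 in control cells (0.86 ± 0.35, adjusted p = 0.0983). The groups did not overlap, and the number 1 array was the lowest of each. With the array block the difference was 0.73 at 10 h (adjusted p = 0.00121) and 0.50 at 4 h (adjusted p = 0.00631), where NCFM cells had 5671, 8327 and 10824 and control cells 4390, 6115 and 6779. At 18 h the Hif1a difference was 0.34 (interval -0.43 to 1.11) and was not called with the block either (adjusted p = 0.235). Without control array 2 Hif1a was called at 10 h, and 1 of its 4 probe sets was called at 4 h (0.35, adjusted p = 0.0264). Egln1, the gene of the hydroxylase PHD2, had 658, 953 and 1012 in NCFM cells at 10 h against 1766 and 1965 in control cells, 2.17-fold lower (-1.12 ± 0.25, adjusted p = 0.0059). By 18 h Egln1 had 2118, 1681 and 1332 in NCFM cells, around the 1576 and 1592 of control cells. Egln3, the gene of the hydroxylase PHD3 and itself a strong HIF target, had 8057, 5098 and 3323 in NCFM cells at 18 h against 1881 and 1875 in control cells. It was 2.74-fold higher (1.46 ± 0.45, adjusted p = 0.0347). A dimmer probe set of Egln3 had 1.48 and was not called when every probe set was tested (adjusted p = 0.0568). At 10 h all NCFM arrays of Egln3 lay below the controls, at 1061, 2150 and 2067 against 3024 and 3546, where the difference of -0.97 was not called (adjusted p = 0.141). The Egln1 call at 10 h held in all alternatives run. Egln3 at 18 h lost its call without NCFM array 1 (1.13, adjusted p = 0.101), NCFM array 2 (1.46, 0.0787), control array 1 (1.46, 0.108) or control array 2 (1.45, 0.132).

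Of the other HIF targets Ddit4 and Ankrd37 were low at 4 h, and these and Vegfa were high at 18 h. Ddit4, which restrains the growth kinase mTOR in hypoxia and stress, had 341, 437 and 274 in NCFM cells at 4 h against 979, 1155 and 683 in control cells, 2.66-fold lower (-1.41 ± 0.37, adjusted p = 0.0201). At 18 h the order was turned, with 3097, 4077 and 2072 in NCFM cells against 801 and 940 in control cells, 3.42-fold higher (1.77 ± 0.42, adjusted p = 0.00873). The groups did not overlap at either time. Ankrd37, a small ankyrin protein known as a HIF target, went the same way. It had 571, 696 and 399 in NCFM cells at 4 h against 1159, 1417 and 1055 in control cells (-1.15 ± 0.25, adjusted p = 0.00656). At 18 h Ankrd37 had 2434, 2654 and 2235 in NCFM cells against 933 and 870 in control cells (1.43 ± 0.27, 2.7-fold, adjusted p = 0.00259). Vegfa, the growth factor for blood vessels, had 2135, 2254 and 1456 in NCFM cells at 18 h against 518 and 790 in control cells (1.58 ± 0.35, adjusted p = 0.00585). Its second probe set had 0.99 and was not called when every probe set was tested (adjusted p = 0.241). Bnip3, which marks mitochondria for removal, had 10602, 9778 and 8922 in NCFM cells at 18 h against 4446 and 5195 in control cells. Those arrays did not overlap, and the 2.03-fold difference missed the threshold (1.02 ± 0.36, adjusted p = 0.0586) but passed with the array block (0.96, adjusted p = 0.0332). The Ankrd37 calls held in all alternatives run. At 4 h Ddit4 was lost without NCFM array 3 (-1.25, adjusted p = 0.072), control array 1 (-1.37, 0.0544) or control array 2 (-1.25, 0.0829), and at 18 h without control array 1 (1.66, 0.0524). Vegfa was lost at 18 h without control array 1 (1.28, 0.0576) or as the mean of its probe sets (1.28, 0.0535).

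The NCFM difference itself changed with time for 3 genes. Between 4 and 18 h it grew by 3.19 ± 0.56 for Ddit4 (adjusted p = 0.0103) and by 2.58 ± 0.37 for Ankrd37 (adjusted p = 0.00398), and it changed by -1.58 ± 0.25 for Slc2a6 (adjusted p = 0.00705). These 3 of 30 stand beside 3.4% of all genes. Each held at an adjusted p under 0.05 in all alternatives run, while Ddit4 did not pass the stricter threshold of 0.01. With the array block Slc2a3 (1.24), Hk3 (1.10), Aldoc (-0.88) and Eno3 (-0.79) were called in this contrast too, which makes 7 (9.15% of all genes). Between 4 and 10 h no gene of the list was called (0.506% of all genes; 9 had an unadjusted p under 0.05), and 4 were with the block: Ddit4 (2.16), Hk3 (1.25), Aldoc (-1.19) and Eno3 (-0.69), against 2.51% of all genes. Without NCFM 4 h array 1 or control 10 h array 2 there was 1 call between 4 and 10 h, and without NCFM 10 h array 1 there were 2. Without control 10 h array 2 there was 1 call between 10 and 18 h. Between 10 and 18 h none was called (0.0055% of all genes; 13 had an unadjusted p under 0.05), and the block called Slc2a3 (1.46) and Ankrd37 (1.93), against 0.451% of all genes. Egln3 had the largest change between these times, 2.42 ± 0.64, which did not pass (adjusted p = 0.277).

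NCFM cells compared with each other over time gave the same genes values of their own, with the NCFM arrays shared by both kinds of comparison. From 10 to 18 h 7 genes were called, 6 higher and 1 lower, against 2.78% of all genes. Tpi1 (0.92 ± 0.13), Pkm (0.79 ± 0.11), Pgk1 (0.48 ± 0.10) and Aldoa (0.42 ± 0.07) of the lower pathway were higher at 18 h, as were Ankrd37 (1.5 ± 0.25) and Egln1 (0.97 ± 0.22), and Slc2a6 was lower (-1.25 ± 0.17). From 4 to 18 h 12 genes were called, 9 higher and 3 lower, against 16.2% of all genes. Ddit4 was 8.62-fold higher (3.11 ± 0.37, adjusted p = 0.000185) and Ankrd37 4.50-fold (2.17 ± 0.25, adjusted p = 0.000134). Slc2a6, Aldoc and Eno3 were the 3 lower ones. From 4 to 10 h 4 genes were called, against 6.28% of all genes: Ddit4 (2.18 ± 0.37) and Hk3 (1.41 ± 0.22) higher, Aldoc (-1.38 ± 0.16) and Egln3 (-1.61 ± 0.40) lower. With the array block 8, 13 and 16 genes were called from 4 to 10, 10 to 18 and 4 to 18 h, against 12.6%, 7.21% and 23.5% of all genes. Control cells showed no called gene between any of the times in limma, in the list or among all genes, where 2, 2 and 1 listed genes and 553, 653 and 559 of all genes had an unadjusted p under 0.05, and no listed gene was called with the block. Single arrays ended several of these calls. Egln3 was lost without any of 6 arrays (adjusted p up to 0.13), Egln1 without any of 10 (up to 0.139), Pgk1 without any of 4 (up to 0.119), and Ankrd37 from 10 to 18 h without NCFM 18 h array 2 (1.44, adjusted p = 0.0517), which left 4 calls in that contrast. From 4 to 18 h Pkm was lost without any of 5 arrays, Aldoa and Eno3 without any of 4 each, Bnip3 without either of 2 and Slc2a3 without 1.

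The array number entered several of these values. Within the groups the number 1 array lay below its partners in all 6 groups for Pfkfb3 (mean difference -1.18), Hif1a (-0.68), Hk2 (-0.63), Pfkfb4 (-0.43) and Pfkm (-0.18), and above them for Pfkp (0.67) and Eno3 (0.50). That is 7 of 30 genes, or 23.3%, against 18.1% of all genes. At 4 h several genes had another sign in the number 1 pair than in the other arrays. With only the arrays numbered 2 and 3, 12 genes were called higher at 4 h (7.55% of all genes) and 2 lower (17.5% of all genes). Egln3 then had 1.30 (adjusted p = 0.0114), where the number 1 pair alone had -0.04. Slc2a1 had 0.85 (adjusted p = 0.0137) against -0.23 in the number 1 pair. Ldha had 0.33 (adjusted p = 0.0416) against -0.11, and Tpi1 0.36 (adjusted p = 0.0358) against -0.16. The other 8 were Slc2a6, Hk2, Hk3, Pfkp, Pfkl, Slc16a1, Hif1a and Vegfa. What the number stands for is not given in the labels, and its part in the 4 h values was not tested. Slc16a3 at 10 h had -2.41 in the number 1 pair and -0.13 in the others, the same sign with unlike sizes. Every called difference of the 30 genes between NCFM and control cells had the same sign on both sides. The calls come from a fit that pools both sides, so like signs are no independent evidence.

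**Figure D3:**
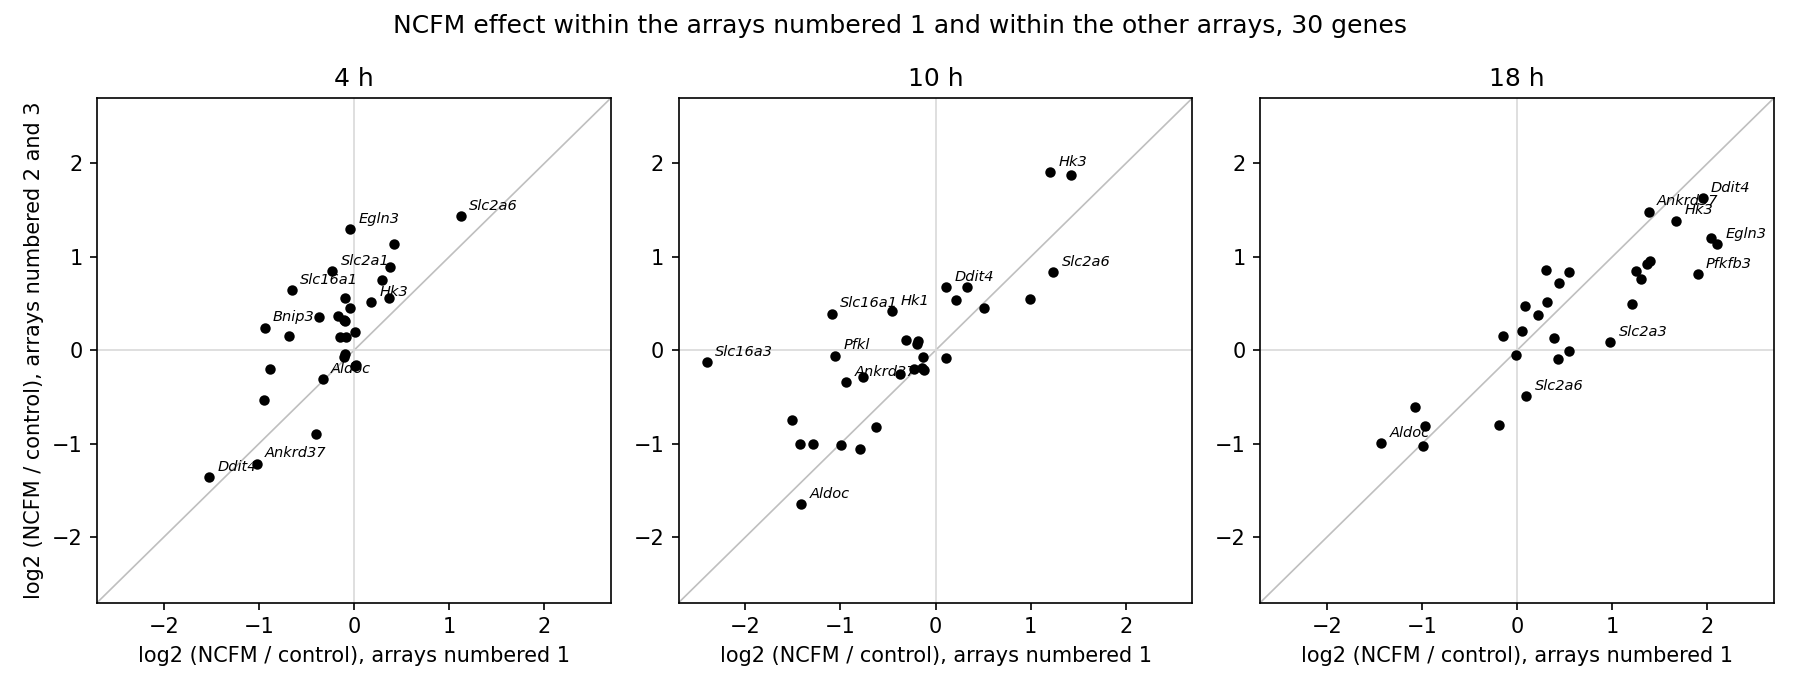
NCFM effect (log2 ratio) in the arrays numbered 1 (x axis) and in the arrays numbered 2 and 3 (y axis) for 30 genes at 4, 10 and 18 h, where controls at 10 and 18 h have no array 3; the diagonal marks equal effects. At 4 h Egln3 (-0.04 against 1.30) and Slc2a1 (-0.23 against 0.85) lie left of the diagonal, and at 10 h Slc16a3 (-2.41 against -0.13) lies far from it.

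Further lists place these genes in the wider pathway: 148 of 163 listed genes were measured, in 8 lists. Of 38 other HIF targets 14 were called higher and 2 lower at 18 h (median 0.48), against 7.4% and 16.3% of all genes. The largest rises were Nos2, the inducible nitric oxide synthase (3.71 ± 0.51), the heme oxygenase Hmox1 (3.24 ± 0.51), the lipid droplet protein Hilpda (2.58 ± 0.52) and the collagen prolyl hydroxylase P4ha2 (1.96 ± 0.31). Tfrc, the transferrin receptor, fell (-1.97 ± 0.20), and so did Angptl4 (-0.47 ± 0.11). As means of all their probe sets Tfrc had -0.41 and Angptl4 -0.21, both still called. Without NCFM 18 h array 2 the HIF target list had 8 rises, and it had up to 18 without another array. The same list had 2 rises and 5 falls at 4 h, including Plod2 (1.51 ± 0.20) and Cxcr4 (-2.37 ± 0.38), near the 5.27% and 13.1% of all genes. At 10 h it had 4 rises and 5 falls, where 8.21% of all genes were higher and 16.5% lower. With the array block the HIF targets had 6 rises and 7 falls at 4 h (7.55% and 19.3% of all genes), 7 and 7 at 10 h (9.95% and 21.2%) and 18 and 2 at 18 h (9.2% and 21.3%). Nos2 and Hmox1 are also known as targets of inflammatory and oxidative signals. Among 16 genes of oxygen sensing, Vhl was lower at all 3 times (-0.64 ± 0.11, -0.62 ± 0.12 and -0.45 ± 0.12), as was the hydroxylase Egln2 (-0.26, -0.27 and -0.30). Cited2, which competes with HIF for its coactivators, was higher at 4 h only among the 3 comparisons (2.20 ± 0.21, adjusted p = 3.74e-05), and its effect was lower at 18 h than at 4 h by a tested difference (-2.50 ± 0.32, adjusted p = 0.00221). Vhl at 18 h lost its call without any of 3 arrays. A further quantile normalization ended the Vhl call at 18 h (-0.30, adjusted p = 0.0826) and the calls of Egln2.

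In the lists around glycolysis more genes were called lower than higher, as among all genes, of which 13.1%, 16.5% and 16.3% were lower and 5.27%, 8.21% and 7.4% higher at 4, 10 and 18 h. In the pentose phosphate pathway, which makes NADPH and ribose from glucose, 3, 5 and 5 of 11 genes were called lower at 4, 10 and 18 h and none higher. Rpia had -1.42 ± 0.20, Pgls -1.32 ± 0.18 and Prps2 -1.22 ± 0.20 at 18 h (-0.75 as the mean of its probe sets). Of 12 genes for pyruvate entry into mitochondria 4 were lower at 18 h, led by Pdha1, a subunit of pyruvate dehydrogenase (-1.07 ± 0.12), and its partner Dlat (-0.74 ± 0.09). Both NCFM effects were lower at 18 h than at 4 h by the test of the difference (-0.72, adjusted p = 0.033, and -0.53, adjusted p = 0.0327). Glycogen genes split at 18 h: the synthesis genes Gbe1 (1.71 ± 0.41), Gys1 (1.13 ± 0.20) and Ugp2 (0.64 ± 0.17) were higher, and 4 of 12 were lower, among them Pygl, the phosphorylase that breaks glycogen down (-1.01 ± 0.19). Gys1, which the HIF target list holds too, was lower at 10 h (-0.77 ± 0.20), and that call was lost without either control array at 10 h. Other transport genes had 3 falls and no rise of 17 at 18 h, near the share of all genes, including Emb, a partner of the lactate carriers (-1.31 ± 0.30), and Txnip, which curbs glucose uptake, fell at 10 h (-1.30 ± 0.42, adjusted p = 0.0389). Of 23 other glycolysis and gluconeogenesis enzymes 2 were higher and 5 lower at 18 h, with Pgm1, phosphoglucomutase, at 1.31 ± 0.25 (0.83 as the mean of its probe sets) and G6pc3 at -0.65 ± 0.08. Of 20 upstream regulators 5 were lower and 1 higher at 18 h. Sesn1, a brake on mTOR signals, fell at all 3 times (-1.67 ± 0.22, -1.40 ± 0.24 and -1.58 ± 0.24), Akt1 fell at 10 and 18 h (-1.22 ± 0.15 and -1.14 ± 0.15, or -0.55 and -0.56 as means of its probe sets), and Tbk1, a kinase known to speed early glycolysis in dendritic cells, rose at all 3 times (0.61, 1.00 and 0.72). With the array block the lists had, at 18 h, no rise and 6 falls for the pentose phosphate pathway, none and 7 for pyruvate entry, 4 and 4 for glycogen, none and 4 for transport, 2 and 6 for the other enzymes, 3 and 6 for the regulators and 1 and 2 for oxygen sensing. Txnip lost its call without any of 6 arrays (adjusted p up to 0.222). Gbe1 lost its call without control 18 h array 1 (adjusted p = 0.0732) and Ugp2 without any of 3 arrays (up to 0.0747).

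**Figure D4:**
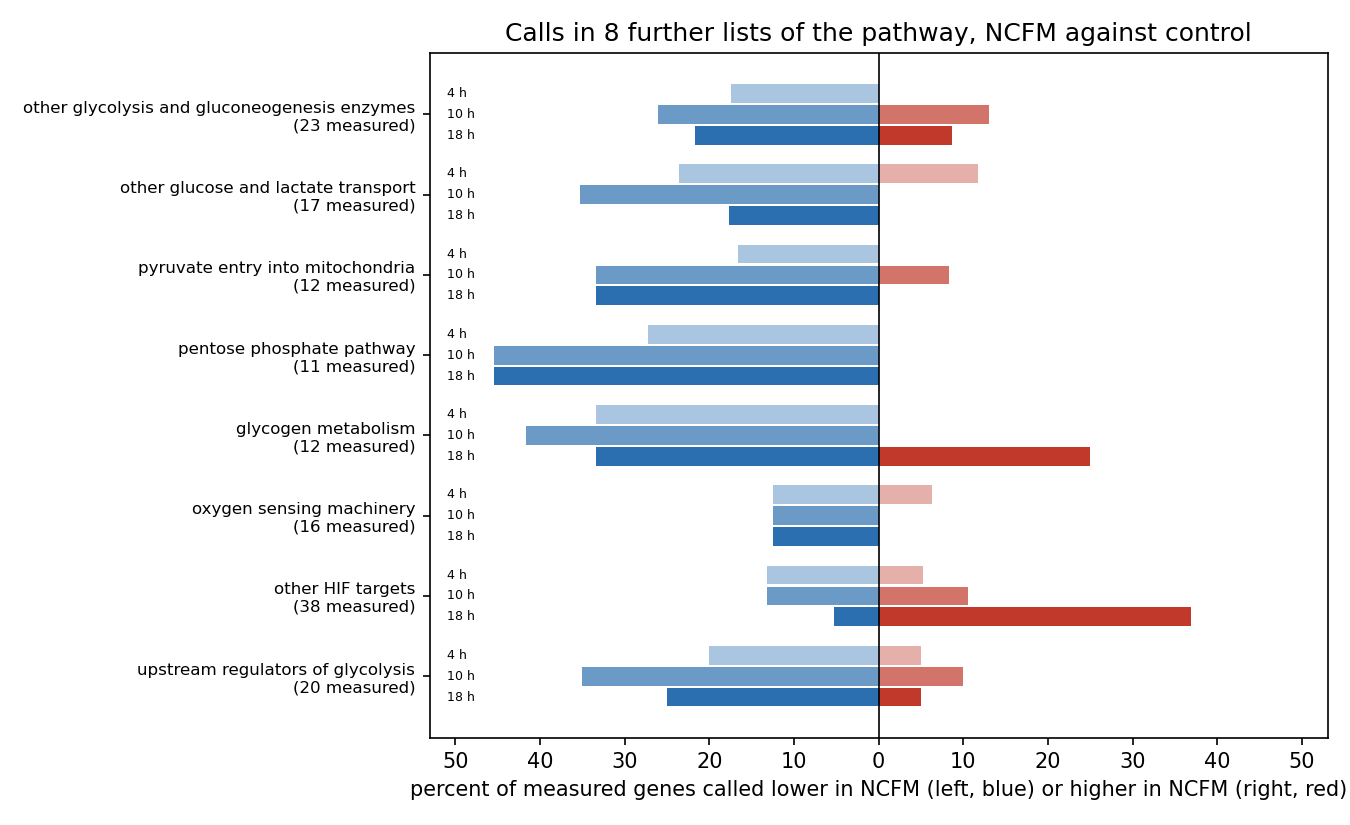
Percent of the measured genes of 8 further lists called lower (left, blue) or higher (right, red) in NCFM cells than in control cells at 4, 10 and 18 h, from light to dark. Other HIF targets reach 14 of 38 higher at 18 h, and the pentose phosphate list has 5 of 11 lower at 10 and 18 h and none higher.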

How the data were processed

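Each of 16 arrays gave 1 column of the deposited table, which holds linear whole-number intensity values. They were taken to be normalized between arrays, and their medians lay between 162 and 167. The summarization and normalization methods are not given in the sources used here, and all 16 columns matched a labelled sample by title. Of 45101 probe sets, 34958 name 1 gene, and 34754 of these were matched to current symbols by gene ID. Each gene was represented by its brightest probe set over all arrays, which gave 18194 genes. Gapdh is measured by control probe sets only. Values were taken to log2, and limma 3.58.1 in R 4.3.3 fitted the 6 group means over all arrays, with 10 residual degrees of freedom, moderated tests and Benjamini-Hochberg adjustment over 18194 genes. Adjusted p-values for single probe sets come from a fit of all probe sets. Figures were drawn with matplotlib 3.10.9 in Python 3.11.15. On simulated data with 200 of 18194 genes changed by 1 on the log2 scale, the 18 h contrast recovered 82% of them and 4.78% of its calls were false, over 5 runs. The simulated arrays varied independently, without the deviations that arrays of the same number share. Fewer genes were changed than the 4319 called at 18 h, so these shares need not hold for the real arrays.

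The labels give replicate numbers. Deviations from the group means correlated between groups for all 36 pairs of arrays with the same number (0.192 to 0.746, median 0.42), while 70 pairs with different numbers had -0.746 to 0.726 (median -0.318). Deviations sum to 0 within a group, and in groups of 2 arrays they mirror each other. The values below 0 for different numbers are therefore no separate evidence. By the correlations of the same numbers, the numbers were taken to pair the arrays, although the labels do not say what a number stands for. A fit that has the number as a block is given where it changes a call of the 30 genes, and as counts for the further lists.

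The members, the further lists and the tests were chosen with earlier results of these data known. Any measured member may be named, and of each further list at most 4 genes called higher and 4 called lower in a contrast. Alternatives were the block, the number 1 arrays apart, scaling, background, pseudocount, dim genes, probe set choice, variance model, samples fitted, threshold and leaving out each array. Applying them to the further lists was decided after seeing the data. Promoter windows and gene symbols come from RefSeq.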

Additional observations from a re-analysis of the deposited data

Results flagged for a closer look

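For 3 genes the effect of NCFM differed between times by the test of the difference itself (limma, Benjamini-Hochberg over all genes). For Ddit4 the NCFM effect at 18 h minus that at 4 h was 3.19 (adjusted p = 0.0103), with all NCFM arrays below the controls at 4 h and above them at 18 h. For Ankrd37 the change was 2.58 (adjusted p = 0.00398), with the same order of arrays. For Slc2a6 the change was -1.58 (adjusted p = 0.00705), with all NCFM arrays above the controls at 4 h and an overlap at 18 h.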

How the results depend on the processing

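No called difference of the 30 genes changed sign under any alternative run. The median over the 30 genes at 4 h was -0.0014 without NCFM array 3, and only arrays numbered 2 and 3 turned the balance of calls at 4 h to 12 higher and 2 lower. Differences that were not called crossed 0 in places, such as Egln1 at 4 h (-0.26 to 0.15). With the replicate block 8 of the 30 genes were called at 4 h, and 4, 2 and 7 for the change of the NCFM effect from 4 to 10, 10 to 18 and 4 to 18 h. For NCFM cells over time the block gave 8 calls from 4 to 10 h and 13 from 10 to 18 h. The block ended no call of the 30 genes. In the further lists it ended those of Slc16a6 and Pdk3 at 10 h, named here after their values were seen. Array number 1 against the others as a block gave 7 calls at 4 h, 4 and 7 for the change of effect from 4 to 10 and 4 to 18 h, and 8 and 13 for NCFM cells from 4 to 10 and 10 to 18 h. Only arrays numbered 2 and 3 gave 14 calls at 4 h, 3 and 6 for these changes of effect, and 10 for NCFM cells from 4 to 10 h. An adjusted p under 0.01 left 2, 5 and 6 calls at 4, 10 and 18 h and 7 for NCFM cells from 4 to 18 h. Fitting only the groups of a contrast gave 2 calls from 4 to 10 h and 4 from 10 to 18 h in NCFM cells. Against control, that fit ended the calls of Eno3 (adjusted p = 0.135), Pkm (0.113) and Slc16a3 (0.191) at 10 h. At 18 h it ended those of Slc2a1 (0.0531), Pfkfb4 (0.126), Ldha (0.0712) and Egln3 (0.0733). It newly called Hk3 at 4 h and Slc16a1 and Bnip3 at 18 h. Spike-in centring and leaving out the dimmest 25% of genes each gave 1 for the change of effect from 4 to 10 h. For most of these settings, and with single arrays left out, the share of all genes called is not given. Those counts of the 30 genes therefore cannot be set against all genes.

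Leaving out 1 array gave 2 to 4, 6 to 11 and 9 to 15 calls at 4, 10 and 18 h, and 0 to 2, 0 to 1 and 3 to 4 for the changes of effect from 4 to 10, 10 to 18 and 4 to 18 h. It gave 3 to 5, 4 to 9 and 8 to 14 for NCFM cells from 4 to 10, 10 to 18 and 4 to 18 h, and 0 for control cells. Spike-in centring moved the median of all genes at 18 h to -0.176, where the 30 genes had a median of 0.22, and 89.6% of its 6462 calls were lower. Of the 4319 calls as deposited, 2973 were lower. A further quantile normalization left 58.1%, 50.1% and 51.4% of calls lower at 4, 10 and 18 h, with medians of 0.17, -0.05 and 0.52 over the 30 genes. The cause was not tested.

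With 2 control arrays at 10 and 18 h, many calls rest on a single control. Dim genes such as Eno3 lie close to the array median, and no source used here describes the authors' treatment of background.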
